A study of Oscheius tipulae with 48 samples.

Results

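Dauer larvae of the nematode Oscheius tipulae were compared with L3 larvae, the feeding stage that the dauer replaces, in 4 whole-worm RNA-seq libraries chosen by their stage label out of 48 in the series. There were 2 libraries of dauer and 2 of L3, all of the laboratory strain CEW1. The dauers were harvested from liquid culture, whose temperature and feeding are not given. The L3 larvae were grown from arrested L1 larvae on plates with OP50 bacteria at 20 °C, so culture and stage changed together and cannot be told apart. The titles call the replicates biological and say nothing of separate cultures, so the p-values measure the spread between libraries, part of which may be technical. The remaining 44 libraries, from staged embryos, other larvae, adults, him-1(sy527) males, worms recovered from dauer and mixed stages, were used for context and to estimate the spread. Values were RPKM, read numbers scaled to library depth and gene length, for 14558 genes; the unit was read from the values.

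The dauer is an alternative larval stage that many nematodes enter when food is short or animals are crowded. In Caenorhabditis elegans, where it is best studied, the decision runs through insulin-like, TGF-beta and steroid hormone signals that converge on the FOXO factor DAF-16 and the nuclear receptor DAF-12. The C. elegans dauer does not feed, its mouth is closed, its body wall is covered by a specialised cuticle, its germline does not grow, and it lives on stored fat while stress-defence genes are raised. An L3 larva, in contrast, feeds, grows and prepares its next moult. The table pairs no gene ID with a name, so none of these pathways could be looked up in O. tipulae. The stage labels could not be checked against marker genes either, and genes are described by level and by stage, with at most 2 named in each direction.

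The dauer libraries stood apart in their lowest values. Among 3124 genes with a median under 0.5 RPKM over all 48 libraries, the median was 3.59 RPKM in dauer replicate 1 and 1.55 RPKM in dauer replicate 2. It was 0.27 and 0.175 RPKM in the L3 libraries, and at most 0.54 RPKM in 20 of the 23 other larval, adult and mixed-worm libraries. Values are as deposited unless a sentence says that this silent level was subtracted. The values also summed to less in dauer, 402630 and 371389 RPKM against 648825 and 571551 RPKM in L3. A value is relative to the reads of its library, so the amount of RNA per worm cannot be read from it. Why the sums differed was not tested, and a lower value in dauer may in part reflect the lower sum.

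The number of strongly expressed genes in dauer and L3 depended on how the libraries were scaled. With the silent level subtracted, 4940 and 4818 genes reached 10 RPKM in the dauer libraries, against 6774 and 6243 in L3. At 100 RPKM the numbers were 460 and 483 against 854 and 759, and at 1000 RPKM 64 and 65 against 109 and 93. As deposited, the stages overlapped at 10 RPKM, with 6414 and 5298 genes in dauer and 6859 and 6304 in L3. With the libraries also rescaled to equal sums, a step added after seeing the data, 5975 and 5729 genes in dauer and 5880 and 5696 in L3 reached 10 RPKM, and 637 and 651 against 609 and 641 reached 100 RPKM. Dauer was thus below L3 without overlap at 10 RPKM only with the silent level subtracted and no rescaling, where its values sum to less. At 100 RPKM it was also below as deposited (482 and 487 against 859 and 759), but not after rescaling. At 1000 RPKM, rescaling alone left 77 and 78 genes in dauer against 93 and 86 in L3. Both steps together gave 84 and 79 against 89 and 82. With 2 libraries against 2, an exact test cannot pass a threshold of 0.05, so none is given. With the silent level subtracted, the pool was about as concentrated in both stages. The 100 most abundant genes then held 37.3% and 38.0% of the summed RPKM in dauer and 37.9% and 39.2% in L3. As deposited, they held 32.8% and 35.9% in dauer and 37.7% and 39.1% in L3, lower in dauer without overlap. Much of the abundant set was shared. Of 89 genes among the top 100 of both dauer libraries, 64 (71.9%) were also in the top 100 of both L3 libraries. These 64 genes are 79.0% of the 81 in the top 100 of both L3 libraries. The most abundant dauer transcripts were thus mostly transcripts that are also abundant in growing L3 larvae.

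Genes were tested on log2(RPKM + 1) with limma, in a fit of the 25 larval, dauer and adult libraries that shares 1 estimate of the spread. Calls required an adjusted p (Benjamini-Hochberg) below 0.05 together with a log2 change of 1 or more in either direction. Of 14446 genes tested, 432 were called (2.99%), 147 higher in dauer (1.02%) and 285 lower (1.97%). Taking only genes with a mean of at least 10 RPKM in the higher group, 85 were higher (1.12% of 7571) and 283 lower (3.74%). On this scale the lower genes were the more abundant set. Between 100 and 1000 RPKM, 97 genes were lower and 15 higher out of 847 tested, and at 1000 RPKM or more 6 were lower and 0 higher out of 111. The 6 had dauer means between 4.64 and 93.8 RPKM. Under 10 RPKM the balance was the other way, with 62 higher and 2 lower out of 6875. The silent level bears on these 62, of which 46 belong to the silent set and 29 stayed called once it was subtracted. Of the 85 abundant higher genes 81 stayed called, and of the 285 lower genes 284. Subtraction also added calls among abundant genes: at a mean of at least 10 RPKM the higher ones became 107 (1.41%) and the lower ones 834 (11.0%).

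**Figure D1:**
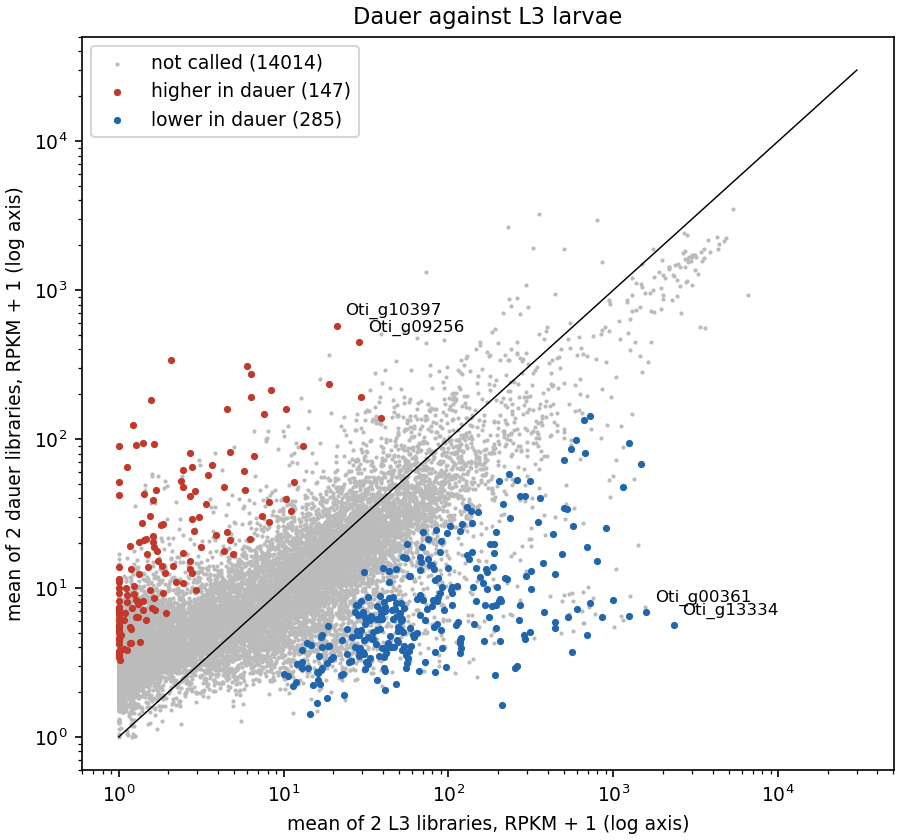
Mean RPKM + 1 of the 2 dauer libraries (vertical, log axis) against that of the 2 L3 libraries (horizontal, log axis) for 14446 genes, with a line of equal level. The 285 genes called lower in dauer reach L3 means above 1000 RPKM, while many of the 147 called higher lie at the left edge, at L3 means near 0, and the 4 genes described in the text are labelled.

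The balance between directions depended on how libraries were scaled and on which libraries were in the fit. With the silent level subtracted, 1281 of 13538 genes were called (9.46%), 183 higher (1.35%) and 1098 lower (8.11%), and the median log2 change of all genes moved from 0.14 to -0.40. After quantile normalization the split was 403 higher and 733 lower. When each library was rescaled to the same sum, 1081 were higher and 219 lower with a median of 0.70, and with both steps 481 were higher and 608 lower with a median of 0.17. The last pair of settings was chosen after seeing the data. Whether more genes were lower or higher in dauer was therefore not fixed by these values. Of the 432 called genes, 361 stayed called in the same direction after rescaling, all 147 higher ones and 214 of the 285 lower ones. After quantile normalization 380 stayed called, and 120 with a pseudocount of 0.1. The count also rested on each library, at 13 genes without dauer replicate 1, 40 without dauer replicate 2, 15 without L3 replicate 1 and 18 without L3 replicate 2. It was 5019 without 5 libraries of other groups that stood apart and to 4659 with only dauer and L3 in the fit.

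**Figure D2:**
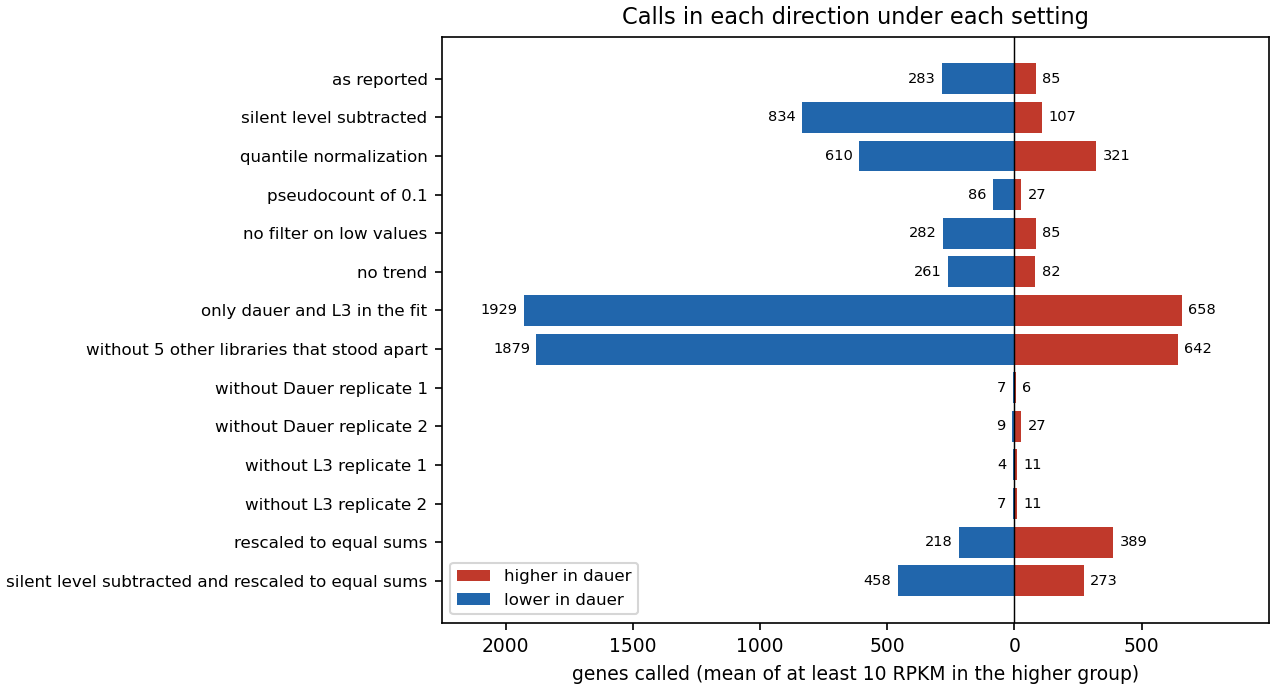
Number of genes called higher (red, to the right) and lower (blue, to the left) in dauer than in L3, among genes with a mean of at least 10 RPKM in the higher group, for the reported fit and each alternative. The reported split of 85 higher and 283 lower becomes 389 higher and 218 lower when libraries are rescaled to equal sums, and few genes are called when any 1 dauer or L3 library is left out.

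The 2 most abundant genes called higher in dauer were Oti_g10397 and Oti_g09256. More abundant genes that were higher in dauer but not called are described further below. Oti_g10397 had 802.89 and 351.14 RPKM in dauer, compared with 7.67 and 32.38 RPKM in L3. Its groups were well apart, and its mean level in dauer, 577 RPKM, ranked 94 of all genes, against 4326 in L3. By limma it was higher in dauer by 4.97 ± 1.18 (log2, SE; Benjamini-Hochberg adjusted p = 0.0342). Oti_g09256 had 567.9 and 325.49 RPKM in dauer, compared with 28.19 and 27.48 RPKM in L3. All 4 values separated the stages, with dauer replicate 1 the higher of its group, as for Oti_g10397. By limma the difference was 3.90 ± 0.94 (log2, SE; Benjamini-Hochberg adjusted p = 0.0359).

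Neither gene was confined to dauer. Oti_g10397 reached 353.08 RPKM in L1 replicate 2 while the other L1 libraries were at 12.32 and 8.05 RPKM, and Oti_g09256 was at 171.05 RPKM in that library against 18.97 and 25.92 RPKM. Both genes were low again in post-dauer L3, the larvae that have left dauer: 9.98 and 23.78 RPKM for Oti_g10397 and 5.35 and 6.06 RPKM for Oti_g09256. Both were higher at some later stages, in worms that had passed through dauer and in others. Oti_g10397 was at 56.46 and 142.56 RPKM in post-dauer L4 and at 829.2 and 424.14 RPKM in post-dauer mature adults, as high as in dauer. It was at 37.33 and 42.94 RPKM in post-dauer young adults and, without dauer in the label, at 56.55 and 106.79 RPKM in males. In mature adults grown directly it was at 1.27 and 3.94 RPKM. The high values thus lay in dauer, 1 L1 library and post-dauer mature adults, with males and post-dauer L4 in between. Oti_g09256 was at 182.44 and 133.93 RPKM in post-dauer mature adults, against 4.04 and 11.9 RPKM in direct ones. Its young adult libraries overlapped, at 222.69 and 25.18 RPKM in post-dauer and 58.0 and 14.28 RPKM in direct worms. Staged embryos had means of at most 5.02 RPKM per stage for Oti_g10397 and at most 0.5 RPKM for Oti_g09256.

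The 2 most abundant genes called lower in dauer were Oti_g13334 and Oti_g00361. Oti_g13334 was at 2670.74 and 2002.85 RPKM in L3, where its mean ranked 44 of all genes, and at 5.64 and 3.63 RPKM in dauer. These dauer values lay 2.05 and 2.08 RPKM above the silent level of their libraries. Oti_g00361 was at 1930.57 and 1243.52 RPKM in L3 and at 5.84 and 6.02 RPKM in dauer, or 2.25 and 4.47 RPKM above the silent level. Both genes were thus near silence in dauer, and the groups were far apart. The log2 change by limma was -8.70 ± 1.87 for Oti_g13334 (SE, Benjamini-Hochberg adjusted p = 0.0264) and -7.81 ± 1.95 for Oti_g00361 (SE, Benjamini-Hochberg adjusted p = 0.0418). These changes became -9.56 ± 1.90 and -8.52 ± 2.03 (SE) with the silent level subtracted. The calls of Oti_g10397, Oti_g09256, Oti_g13334 and Oti_g00361 were each lost when any 1 of the 4 dauer and L3 libraries was left out (limma Benjamini-Hochberg adjusted p between 0.103 and 0.278) and with a pseudocount of 0.1 (0.0568 to 0.065).

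Both lower genes differed between libraries of other stages. Oti_g13334 was at 7.51 and 910.06 RPKM in the post-dauer L3 libraries, and Oti_g00361 at 7.56 and 1541.42 RPKM. Replicate 1 was thus near its silent level of 2.44 RPKM for both genes, and replicate 2 near the L3 level for Oti_g00361. Directly grown larvae followed different courses: Oti_g13334 stayed between 0.95 and 2.95 RPKM in L1, had 105.77 and 31.29 RPKM in the L2 libraries, and reached 935.4 and 1006.78 RPKM in L4. Oti_g00361 was already at 109.69 to 516.59 RPKM in L1 and at 1122.42 and 1174.76 RPKM in L4. In males the 2 genes were at 25.18 RPKM or less.

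**Figure D3:**
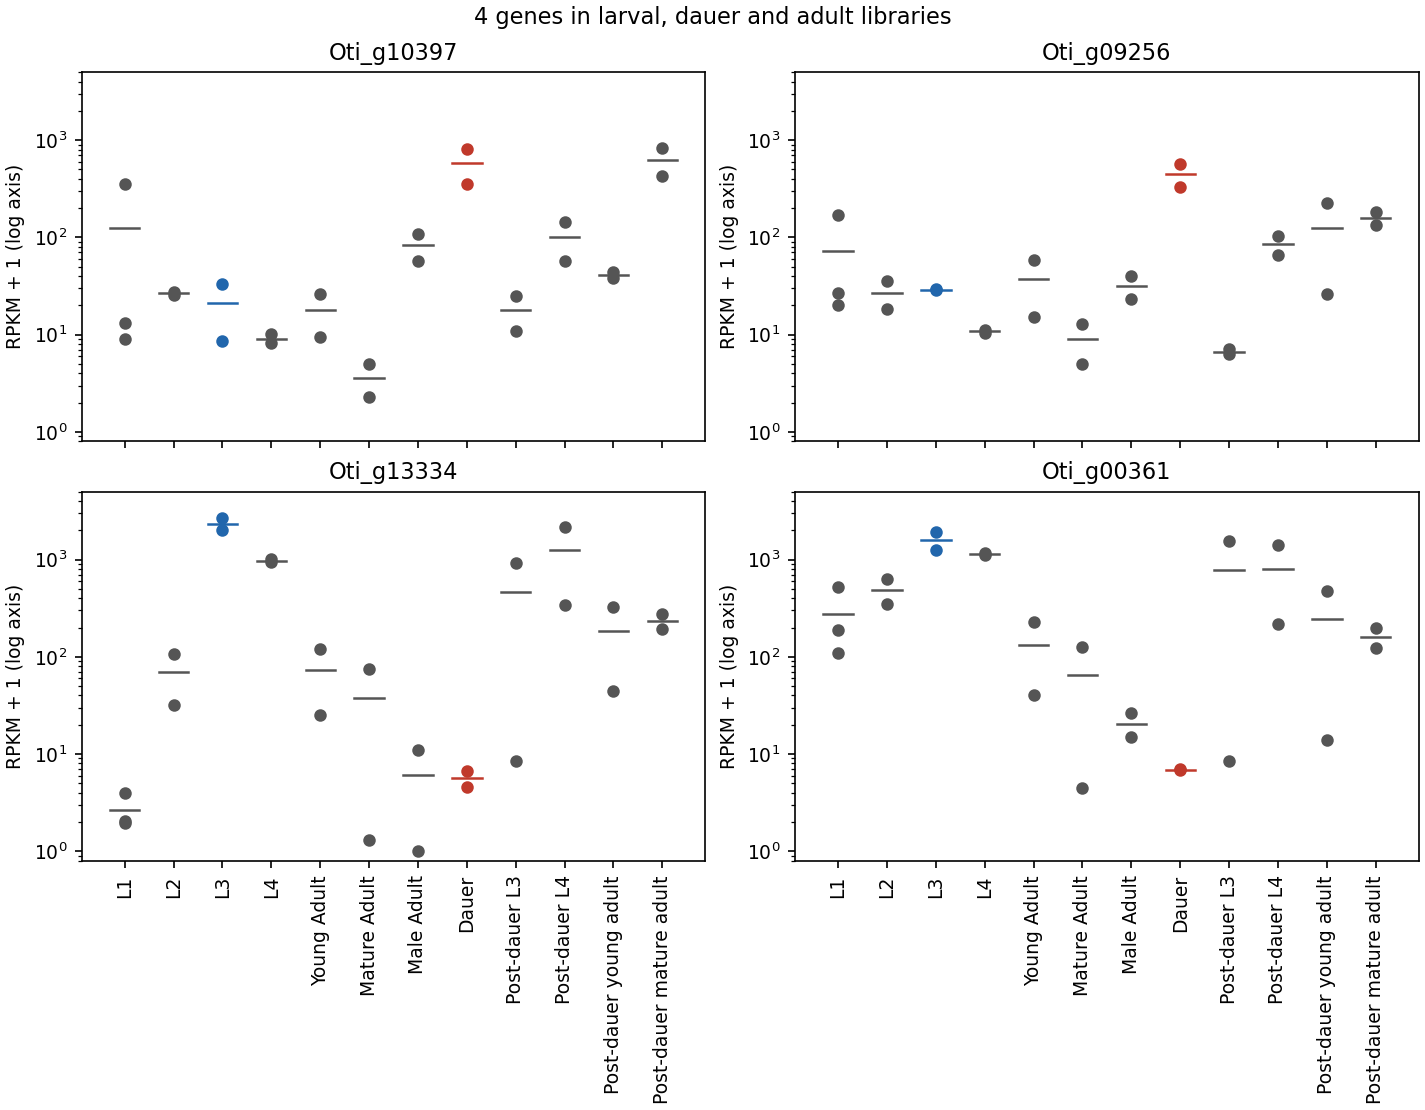
RPKM + 1 (log axis) of 4 genes in each larval, dauer and adult library, with a bar at the mean of each group, dauer in red and L3 in blue. The 2 upper genes peak in dauer and again in post-dauer mature adults. The 2 lower genes are high in L3 and L4 and at 3.63 to 6.02 RPKM in dauer. For both lower genes, post-dauer L3 replicate 1 lies just above dauer and replicate 2 far above it.

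The genes higher in dauer were mostly weak in the larvae from L2 to L4, and less uniformly so in adults, above all post-dauer adults. The 85 abundant ones had medians of 35.3 and 22.0 RPKM in the dauer libraries and of 1.32 and 1.79 RPKM in L3, the groups that chose them. In L2 and L4, which did not, the medians were 0.88 to 2.33 RPKM, and in post-dauer L3 they were 4.47 and 1.59 RPKM, or 2.03 and 1.38 RPKM with the silent level subtracted. Of the 85, 85 had both L2 libraries and 84 both L4 libraries below both dauer libraries, where 36.4% and 40.7% of all genes did. Likewise 79 were below dauer in all L1 libraries (all genes 27.4%), 81 in post-dauer L3 (21.0%), 71 in young adults (38.0%), 74 in mature adults (49.3%) and 74 in males (38.1%). In the post-dauer groups after L3 the counts were 78 in L4 (27.9%), 62 in young adults (8.46%) and 59 in mature adults (33.4%). These counts share the dauer libraries that chose the list. Among the 12 larval, dauer and adult groups, 61 of the 85 had their highest mean in dauer, 12 in post-dauer mature adults and 12 in other groups. With the silent level subtracted, 31 of the 85 had a mean in post-dauer mature adults of at least 0.5 times that in dauer, against 12 in direct mature adults. For 38, every other larval or adult group mean was under 0.5 times the dauer mean with the silent level subtracted, and 37 of these stayed so with the staged embryos added. Shares over all genes were not computed for counts at 0.5 or 0.1 times a mean, here and below. The staged embryo libraries had medians of 0.07 to 0.50 RPKM for this list.

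L1 larvae, which the protocol describes as arrested after development in buffer, had little of this set. With the silent level subtracted, 9, 13 and 3 of the 85 genes reached 0.5 times their dauer mean in L1 replicates 1, 2 and 3, and 51, 33 and 61 were under 0.1 times. L1 replicate 2 stood apart in the strongest of them: 5 genes were at 100 RPKM or more there, and 0 in the other L1 libraries. The difference between L1 libraries was not tested.

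The genes lower in dauer were expressed in the other feeding larvae. The 285 genes had medians of 63.9 and 57.5 RPKM in L3 and 5.81 and 4.57 RPKM in dauer (2.22 and 3.02 RPKM with the silent level subtracted), and 54.8 to 58.7 RPKM in the L2 and L4 libraries, which did not choose them. Both L2 libraries were above both dauer libraries for 281 of the 285 genes and both L4 libraries for 284, where 32.1% and 34.7% of all genes were. It was 276 in post-dauer L3 (all genes 23.9%), 133 in L1 (8.2%), 129 in young adults (24.0%), 155 in mature adults (25.1%) and 157 in males (32.2%). In later post-dauer stages it was 220 in L4 (23.9%), 243 in young adults (19.6%) and 216 in mature adults (27.2%), and the dauer libraries that chose the list enter each count. With the silent level subtracted, the mean reached at least 0.5 times that of L3 for 241 genes in L2 and 256 in L4. It did so for 62 in L1, 58 in young adults, 62 in mature adults and 40 in males. In directly grown worms the set was thus expressed from L2 to L4 and at a lower level before and after. The median of all genes tested also varied, at 7.275 to 8.9 RPKM in the L2 to L4 libraries and 4.08 to 6.455 RPKM in L1. It was 2.43 to 6.925 RPKM in young and mature adults and 7.82 and 7.66 RPKM in males. In dauer, 74 of the 285 genes were under 1 RPKM above the silent level in both libraries, 210 were under 10 RPKM and 45 kept at least 10 RPKM. The post-dauer L3 libraries had medians of 39.6 and 38.2 RPKM for the list, and 167 and 204 of its genes reached 0.5 times the L3 mean there, 135 of them in both libraries.

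**Figure D4:**
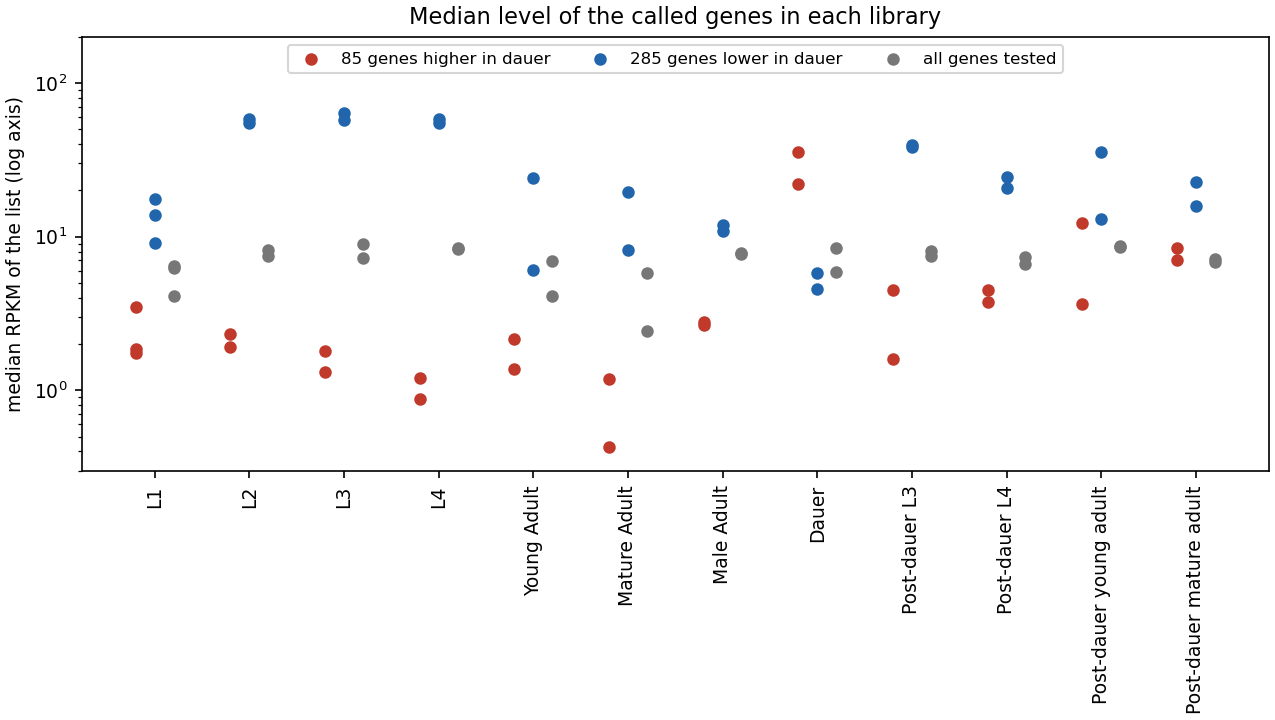
Median RPKM (log axis) of the 85 abundant genes higher in dauer (red), the 285 genes lower in dauer (blue) and all genes tested (grey), 1 point per library. The lists were chosen in the dauer and L3 columns. In the others, the blue points lie at 54.8 to 58.7 RPKM in L2 and L4. The highest red point there is 12.4 RPKM in post-dauer young adult replicate 1, whose silent level was 5.32 RPKM. Next are the post-dauer mature adults at 7.0 and 8.46 RPKM, whereas post-dauer young adult replicate 2 is at 3.63 RPKM, below both post-dauer L4 libraries.

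These lists also took up very different shares of the transcript pool between stages. The dauer and L3 libraries chose the lists, so their shares there are only a description. The 285 lower genes held 7.76% and 7.32% of the summed RPKM in L3 and 0.807% and 0.829% in dauer. Their share was 6.02% to 6.31% in L2, 8.29% and 8.38% in L4, 4.99% and 5.91% in post-dauer L3 and 1.92% and 2.07% in males. The 85 higher genes held 1.96% and 1.19% in dauer and 0.0491% and 0.0611% in L3. They also held 3.89% and 0.975% in mature adults. This came from 8 genes whose mature adult libraries were above both dauer libraries: they held 3.85% and 0.929% there and 0.0669% and 0.214% in dauer. The other 77 held 0.0400% and 0.0463% in mature adults.

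**Figure D5:**
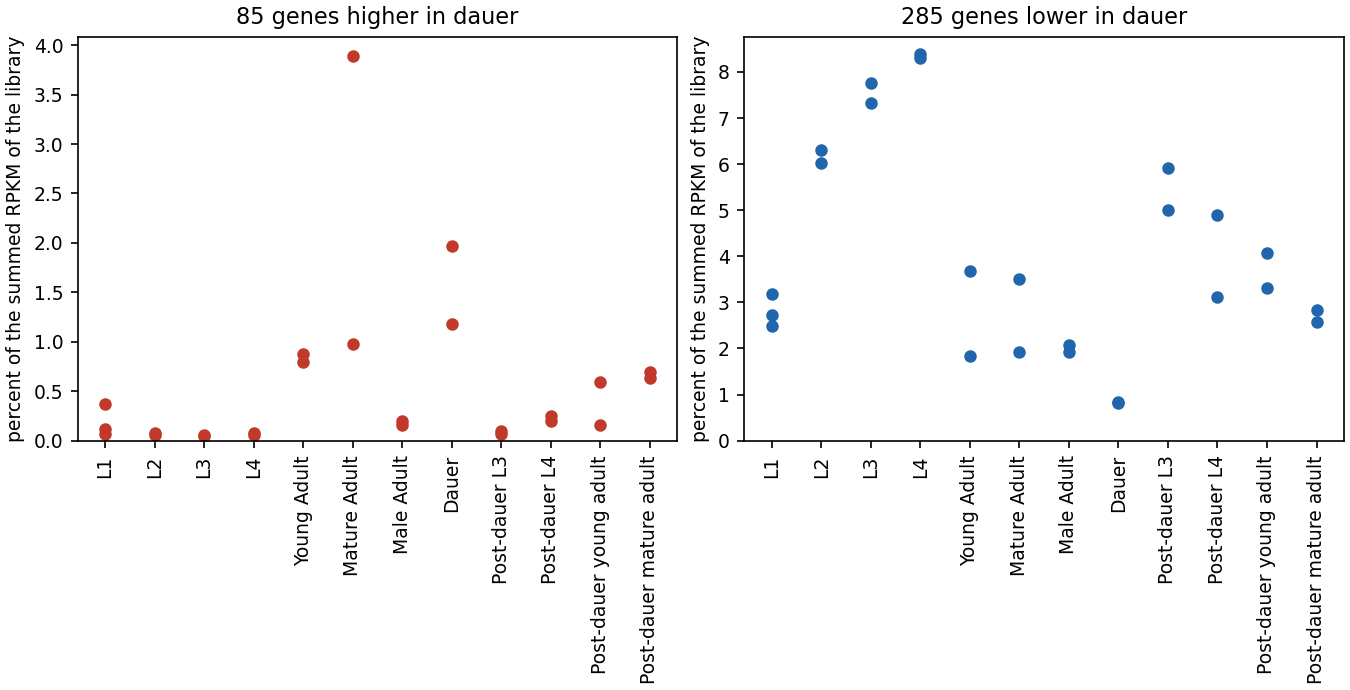
Percent of the summed RPKM of each library held by the 85 abundant genes higher in dauer (left) and by the 285 genes lower in dauer (right), 1 point per library. The lower genes hold 0.807% and 0.829% in dauer and more in every other group plotted, and the highest red point, 3.89% in mature adult replicate 1, comes from 8 genes.

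Some genes were detected well above the silent level in a single stage of the pair. With the silent level subtracted, 205 genes (1.41% of 14558) were at 10 RPKM or more in both L3 libraries and under 1 RPKM in both dauer libraries, and 28 (0.192%) the reverse. Of 5836 genes at 10 RPKM or more in both L3 libraries, 3626 were so in both dauer libraries as well. The 205 genes near the silent level in dauer are a small part of the 5836, and their number rests on the cut of 1 RPKM. Of the 205 genes, 132 were at 10 RPKM or more in both L2 libraries, 183 in both L4 libraries, 108 in both post-dauer L3 libraries, 5 in both young adult libraries and 0 in all 3 L1 libraries. Of the 28 genes seen in dauer, 0 were at that level in all libraries of L1, L2, L4 or either group of young adults, 2 in males and 3 in post-dauer mature adults. In post-dauer L3, 11 of the 28 were still at 10 RPKM or more in replicate 1 and 0 in replicate 2. In the tests, 68 of the 205 and 17 of the 28 were called (2.99% of all genes), and 171 and 18 with the silent level subtracted (9.46%). The same 4 libraries chose these genes, so the counts are only a description.

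Comparisons made of neither dauer nor L3 libraries were then read for the same genes, in the same fit and with no test of the lists. Between L1 and L2 75 of the 285 genes lower in dauer were higher in L2 (26.3%), where 313 of all genes tested were (2.17%). By limma 0 of the 285 and 0 of all genes were lower in L2, and 0 of the 85 were called in either direction; at an unadjusted p under 0.05, 0 of the 285 and 171 of all genes were lower, and 0 of the 85 were higher and 1 lower. The median log2 change from L1 to L2 was 1.83 for the 285, -0.21 for the 85 and 0.18 for all genes. Without L1 replicate 1, 59 of the 285 were higher in L2 and 291 of all genes (2.01%), and 0 of the 285 and 2 of all genes were lower (0.0138%). A gene of smaller spread passes more easily in any comparison of this fit. The median SE of the dauer contrast was 0.715 for the 285, 0.731 for the 85 and 0.631 for all genes. These sets were not matched for level. All genes include 6875 with a mean under 10 RPKM in the higher group, whereas 283 of the 285 were at 10 RPKM or more. Among the genes of large change described below, the called ones had a smaller median SE than the uncalled ones. The part of spread and level in the shares of 26.3% and 2.17% was not tested.

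Post-dauer worms were next set against direct worms of the same stage, comparisons added after the levels had been seen. In mature adults, 28 of the 85 genes higher in dauer were higher in the post-dauer worms (32.9%) and 4 lower (4.71%). Among all genes tested 577 were higher (3.99%) and 107 lower (0.741%). The median log2 change was 1.18 for the 85 genes and 0.28 for all. Oti_g10397 was among them, higher by 7.47 ± 1.18 (log2, SE; limma Benjamini-Hochberg adjusted p = 0.0015), and so was Oti_g09256, higher by 4.29 ± 0.94 (log2, SE; the same adjusted p from limma = 0.0148). The silent level was 0.49 and 0.25 RPKM in these post-dauer libraries and 0 and 0.26 RPKM in the direct ones. The 28 became 8 without mature adult replicate 1, 23 without replicate 2, 8 without post-dauer mature adult replicate 1 and 16 without replicate 2, while all genes higher became 28, 619, 45 and 138. The count of lower genes was 4 in each case, for which the identity of the genes was not compared.

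In L4, genes lower in dauer were called lower in post-dauer worms, and the medians of both lists lay away from that of all genes. Of the 285 genes, 34 were lower in post-dauer than in direct L4 larvae (11.9%) and 3 higher (1.05%), where 94 of all genes were lower (0.651%) and 33 higher (0.228%). The median log2 change was -1.03 for the 285, 0.87 for the 85 and 0.12 for all. Of the 85 genes higher in dauer, 2 were higher in post-dauer L4 (2.35%) and 0 lower by limma, with 30 higher and 2 lower at an unadjusted p under 0.05, where 568 and 929 of all 14446 genes were. The lists were not tested against each other. Neither Oti_g10397 nor Oti_g09256 passed (log2 differences of 3.33 ± 1.18 and 2.93 ± 0.94, SE; adjusted p from limma = 0.245 and 0.174). The 34 became 1 without either L4 library, 4 without post-dauer L4 replicate 1 and 6 without replicate 2, and all genes lower became 2, 2, 9 and 11. The silent level was 1.36 RPKM in post-dauer L4 replicate 1 and 0.36 RPKM in replicate 2, and its part in these counts was not tested.

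Replicates agreed less well in dauer than in L3. The median absolute log2 difference between libraries was 0.56 for dauer and 0.37 for L3 over all genes, and 0.85 and 0.43 for the 85 genes higher in dauer. Of these 85 genes, 65 (76.5%) were higher in dauer replicate 1 than in replicate 2, as were 76.8% of all genes, and 34 differed by a log2 value of 1 or more between the dauer libraries. The 285 lower genes differed less, with a median of 0.56 between dauer and 0.38 between L3 libraries. The dauer libraries were not alike in silent level, and the part of that level in these differences was not tested.

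A large change alone did not make a call. There were 175 genes higher and 369 lower in dauer by a log2 change of 3 or more with groups that did not overlap, and 113 and 216 of them were not called. Over all genes, dauer was above L3 without overlap for 37.5% and below it for 29.9%. The uncalled ones had a median SE of 1.18 and 1.25, against 0.82 and 0.89 for the called ones. Among 62 genes with a dauer mean of at least 1000 RPKM, 7 were higher in dauer by a log2 change of at least 1 without overlap and were not called either. They had log2 changes of 1.70 to 4.24 with SEs of 1.23 to 1.96, and their lowest limma Benjamini-Hochberg adjusted p was 0.0688. Of the 62, 52 had a higher mean in L3 on the deposited scale.

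Called genes sometimes had consecutive ID numbers. Among the 285 genes lower in dauer, 41 (14.4%) fell into 20 runs of 2 or 3 consecutive IDs, and among the 147 higher, 13 (8.84%) fell into 6 runs. The share for lists of the same size drawn from all genes was not computed, so these counts are only a description. The table does not say whether ID order follows the chromosomes, and for near-identical or overlapping genes the assignment of reads is uncertain.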

How the data were processed

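RNA of whole worms was prepared with TRIzol, ribosomal RNA was removed, and total RNA libraries followed, per the labels' protocols. The authors deposited RPKM values for each library in a single table; no header names the unit, which was inferred because values have decimals and column sums differ. The submitters' processing notes name HTSeq 2.0.2, StringTie 2.2.0, STAR 2.7.10 and Bowtie2 2.4.2 without role or order. Build, annotation and counting strand: not given in the sources used here. Depth is unknown, so no counting intervals are given. The digits of the L2, L3 and L4 columns differ from those of the labels and serve only as names.

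The tests used limma 3.58.1 in R 4.3.3 on log2(RPKM + 1), with trend and robust options, over 25 libraries of 12 groups; a gene entered where 2 or more libraries reached 1 RPKM. Such fold changes understate the change of low genes. The silent level is the library median of 3124 genes with a median under 0.5 RPKM; values below 0 after subtraction were set to 0. Named genes are the 2 of highest mean in each direction among called genes without overlap that stay called after subtraction. Libraries, lists and alternatives were chosen with earlier results of these data known. The fit was tested on simulated data with normal noise and 1 spread per gene in all libraries, taken from the real fit. In dauer, 100 genes were shifted by each size, drawn from genes with an average level above 10 RPKM in dauer and L3. The fit recovered 12% of the genes shifted by a log2 value of 1.5 and 66% of those shifted by 3, with 1 false call. Libraries of unlike spread were not simulated, so recovery and false calls in the real data may differ. Real changes of these sizes can therefore go uncalled.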

Additional observations from a re-analysis of the deposited data

How the results depend on the processing

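The count of genes called between dauer and L3, 432 as reported and 368 at a mean of at least 10 RPKM in the higher group, became 1281 and 941 with the silent level subtracted, 125 and 113 with a pseudocount of 0.1, 1136 and 931 when quantile normalized, 4659 and 2587 with only dauer and L3 in the fit, 5019 and 2521 without 5 other libraries that stood apart, 1300 and 607 after rescaling to equal sums, and 1089 and 731 with both steps. It was 13 to 40 (13 to 36 at 10 RPKM) without any 1 dauer or L3 library, where the spread of the lone library of its group is taken from the others. No filter on low values and no trend kept it within 1.5 times. The 4 named genes kept their direction in 52 of 52 cases and their call in 32, with the calls lost under a pseudocount of 0.1 and without any 1 library. The mean number of genes at 10 RPKM or more in dauer moved from 5856 to 4879 with the silent level subtracted and to 6903 after rescaling to equal sums, that in L3 from 6582 to 5959 after rescaling and to 5788 with both steps, and the share of the top 100 genes in dauer from 34.4% to 37.6%. No paired analysis was possible because the L3 columns carry no replicate number of the labels. Depth is unknown and 2 libraries a group limit every result.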
